A study of Mus musculus with 32 samples.

Results

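The 10 genes described here encode chains of cytokine receptors, followed here in NSCs: Il1r1, Il6st, Lifr, Osmr, Ifngr1, Ifngr2, Il13ra1, Il10rb, Tnfrsf1a and Cntfr. They were listed by symbol and matched to Ensembl identifiers, a rule that used no measured value. Earlier results of these data were known when the genes were chosen. Their shares and medians beside those of all genes are therefore descriptions only. All 10 were found among the 23035 genes of the footprint tables and among the 39017 genes of the total RNA tables. The data are Ribo-Seq libraries of NSCs from the vSVZ of male C57BL/6 mice aged 8 to 12 weeks, labelled wt. The cells were grown ex vivo with FGF and EGF and treated with vehicle (BSA in PBS) or IFN-β for 2 h or 14 h. All groups share strain, sex, tissue, growth factors and the cycloheximide added before lysis. By their labels they differ in treatment and time, and the cultures of the 2 times are numbered differently. Each of the 4 groups has 4 cultures, with a footprint library and a total RNA library per culture, 32 libraries in all. Cells expanded in growth factors stand outside their niche, which limits them as a model of NSCs in the brain.

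Many cytokine receptors are assemblies of chains, in which a binding chain and a signalling chain act together. gp130, encoded by Il6st, is the signalling chain shared by the IL-6 family. It pairs with the product of Lifr for LIF and CNTF and with that of Osmr for oncostatin M, and it passes the signal through JAK kinases to STAT3. IL1R1 and TNFR1 signal instead through adaptors to NF-κB, and the chains for IFN-γ, IL-10 and IL-13 use JAK kinases and STATs. In vSVZ NSCs, CNTF and LIF signalling through gp130 is known for supporting self-renewal and astrocytic fate.

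Footprint libraries held 2956297 to 10505108 counts, the fewest in IFN-β replicate 1 at 14 h, and total RNA libraries 1370008 to 7877753. All 12 NSC markers examined were detected in every group, with a summed level of 11522 to 18453 CPM (footprint counts scaled to library size with TMM factors) per library. The 9 microglial markers summed to 16.1 to 46.5 CPM, and 3 to 6 of them had no count in a group. Endothelial and mural markers summed to 4.19 to 25.7 CPM, neuronal markers to 7.94 to 15.9 CPM and oligodendrocyte markers to 0.965 to 29.2 CPM. The 4 ependymal markers summed to 24.6 to 37.6 CPM in vehicle and 76.7 to 97.7 CPM with IFN-β at 14 h, and both tested ones rose at 14 h, Foxj1 by 1.24 and Rarres2 by 1.86 on the log2 scale. Among the 3 microglial markers tested at 14 h, P2ry12 rose by 1.62 and Itgam fell by 0.75, and of 2 endothelial and mural markers Tek rose by 0.84. Of the NSC markers, 2 fell at 2 h, Olig2 by 0.98 and Nr2e1 by 0.86, and at 14 h 5 fell, by up to 1.13 for Prom1, and Cd9 rose by 0.23. Prom1 had 4 to 12 counts per IFN-β library at 14 h. Of all genes tested, 2.01% were called lower at 2 h (adjusted p under 0.05 with edgeR). At 14 h, 26.2% were called higher and 26.3% lower. The part of these markers in the receptor values was not tested. At 2 h both libraries numbered 3 stood apart. Their counts differed from those of the other cultures of their group by a chi-square per degree of freedom of 21.1 to 48.3, against 4.00 to 5.93 among the rest, so the 2 h results are also given without them. In bulk cultures, fewer cells carrying a receptor and fewer footprints per cell cannot be told apart.

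The receptor genes lie on 8 chromosomes of the GRCm38 build, and 4 of them are neighbours of another receptor gene. Osmr (ENSMUSG00000022146; chr15:6813577-6874969, minus strand) and Lifr (ENSMUSG00000054263; chr15:7090614-7197489, plus strand) are separated by 215644 bp. Il10rb (ENSMUSG00000022969; chr16:91406164-91425834) and Ifngr2 (ENSMUSG00000022965; chr16:91547072-91565623) lie on the plus strand of a cluster that also holds both chains of the type I IFN receptor, with Ifnar2 ending 574 bp before Il10rb and Ifnar1 between the pair. The remaining genes are Il1r1 (ENSMUSG00000026072; chr1:40225080-40317257), Il6st (ENSMUSG00000021756; chr13:112464070-112510086), Ifngr1 (ENSMUSG00000020009; chr10:19591949-19610229), Il13ra1 (ENSMUSG00000017057; chrX:36112110-36171259), Tnfrsf1a (ENSMUSG00000030341; chr6:125349362-125362484) and Cntfr (ENSMUSG00000028444; chr4:41657498-41697089), the last on the minus strand. No receptor gene overlaps an annotated gene on the other strand.

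Promoter windows of RefSeq (GRCm38.p6, 250 bases before to 50 after the start) were found for 9 of the 10 genes, 16 windows in all, and not for Il10rb. They were searched on both strands for GAAA followed after any 2 bases by GAAA again, the core of the IFN-stimulated response element, and for TTCNNNGAA, the element bound by STAT dimers. The first motif was in 0 of the 16 windows and in 3.44% of all 32851 windows. The second was in 1 of the 16 and in 8.30% of all windows. The only match was 244 bases before a RefSeq start of Tnfrsf1a, at chr6:125349479-125349487 on the plus strand. The match lies inside the gene as annotated above, within a 5′ UTR exon of another annotated transcript. It is shown with its flanks, with the matching letters in capitals, because Tnfrsf1a rose at both times.
Tnfrsf1a, chr6:125349473-125349493, plus strand: gcttccTTCCGTGAAattgac
A match is a description of the letters in the window only.

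After 2 h of IFN-β, 5 receptors rose in footprints, Il13ra1, Osmr, Il1r1, Tnfrsf1a and Il6st, by 1.61-fold to 10.4-fold, and none was called lower without regard to culture number. Of all 12104 genes tested, 7.25% were called at an adjusted p under 0.05, 5.25% higher and 2.01% lower. In the same 5 receptors every IFN-β library lay above every vehicle library, as in 7.68% of all genes. The median log2 fold change was 0.32 over the 10 receptors and -0.02 over all genes. All 10 passed the filter of 10 counts in 4 libraries. Fold changes and adjusted p-values are those of edgeR's quasi-likelihood test, fitted within a time. The p-values measure the spread between cultures of a group, which by the study's methods come from different mice. Vehicle and IFN-β cultures of the same number were taken as pairs, and this test did not use the pairing.

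Among the gp130 family, the signalling chain itself and the oncostatin M chain rose, and the chains for LIF and CNTF did not. Il6st was at 191.5, 274.9, 230.7 and 208.0 CPM in vehicle cultures 2, 3, 5 and 6 at 2 h, and at 301.2, 434.4, 371.6 and 344.6 CPM in the IFN-β cultures of these numbers. The groups did not overlap, and culture 3 was the highest in both. The log2 fold change of Il6st was 0.68 ± 0.15 (SE, n = 4 against 4, adjusted p = 0.0201 with edgeR). Osmr was at 2.66, 14.8, 5.96 and 1.93 CPM in vehicle cultures and at 41.9, 88.6, 63.1 and 52.4 CPM with IFN-β. Even the highest vehicle culture, number 3, stayed under the lowest treated one. Its log2 fold change was 3.30 ± 0.54 (adjusted p = 0.00465), or 3.91 ± 0.27 (adjusted p = 1.21e-06) without both cultures numbered 3. The same 5 receptors were called in that fit, and 14.1% of all genes. Without vehicle culture 3 alone, the log2 fold change of Osmr was 4.13, over 1.5 times larger in fold.

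**Figure D1:**
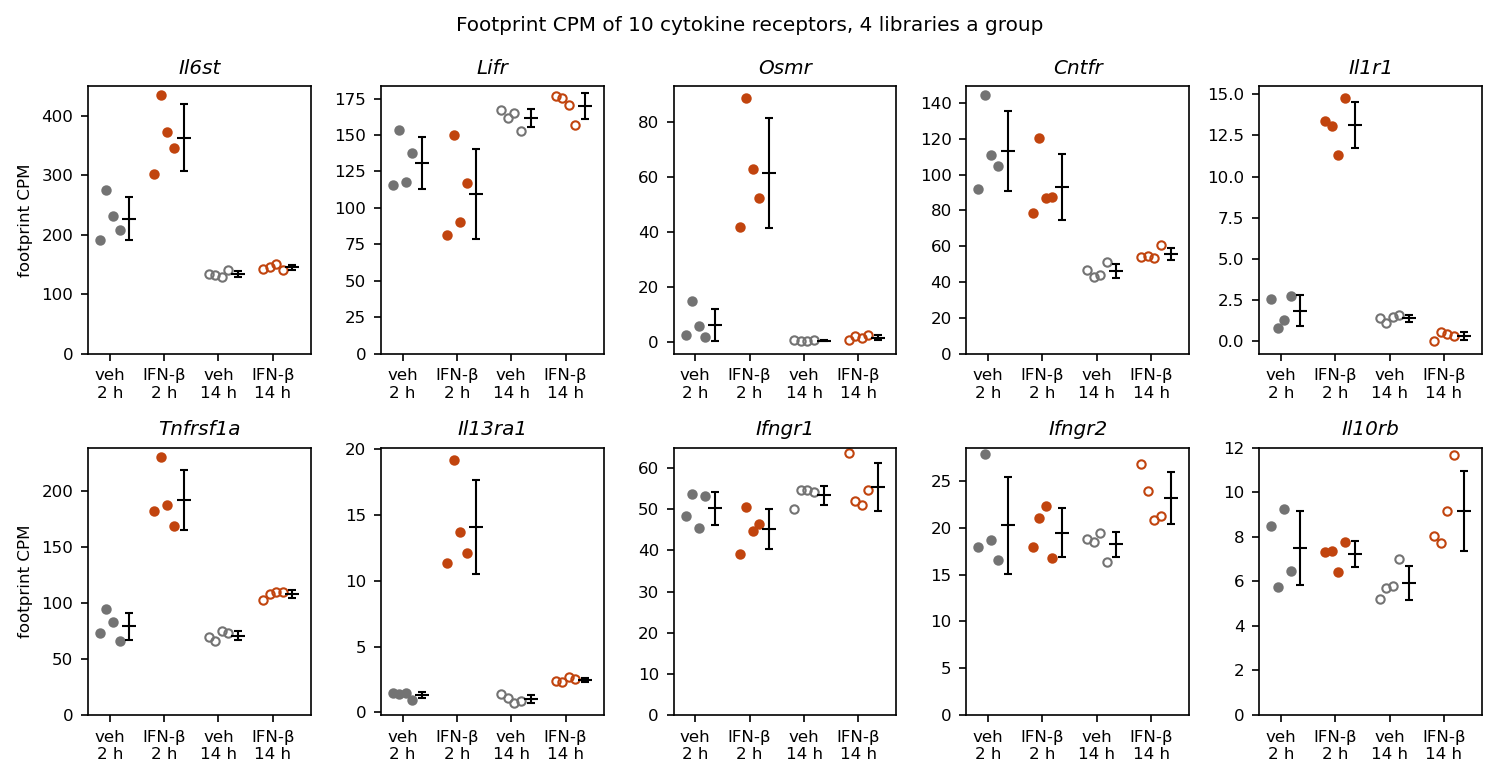
Footprint CPM (linear axes from 0, one panel per receptor) in each of 4 libraries per group, grey for vehicle and orange for IFN-β, filled at 2 h and open at 14 h, with the mean ± SD beside each group. Osmr, Il1r1, Il13ra1, Tnfrsf1a and Il6st show separate groups at 2 h, while Ifngr1 lies between 39.0 and 63.8 CPM in all 16 libraries.

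Lifr was at 115.4, 153.3, 118.1 and 137.4 CPM in vehicle cultures 2, 3, 5 and 6, and at 81.3, 150.1, 90.0 and 117.2 CPM with IFN-β. The groups overlapped, but within each number the treated culture was the lower one. Cntfr, the chain that binds CNTF and has no signalling part of its own, was at 91.8, 144.4, 111.2 and 104.8 CPM in vehicle and at 78.4, 120.3, 86.6 and 87.2 CPM with IFN-β. It too was lower in 4 of 4 same-numbered pairs. Without regard to number, neither passed the test, with log2 fold changes of -0.26 ± 0.19 for Lifr (adjusted p = 0.610 with edgeR) and -0.28 ± 0.17 for Cntfr (adjusted p = 0.497). With the replicate number as a block, both were called lower, at -0.28 ± 0.06 for Lifr (adjusted p = 0.000719) and -0.28 ± 0.05 for Cntfr (adjusted p = 0.000199). That fit called 7 of 10 receptors and 29.2% of all genes, and 13.4% of all genes were called lower. Same-numbered footprint libraries deviated together at both times, and the plot of same-numbered cultures shows the 2 h libraries of these genes.

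**Figure D2:**
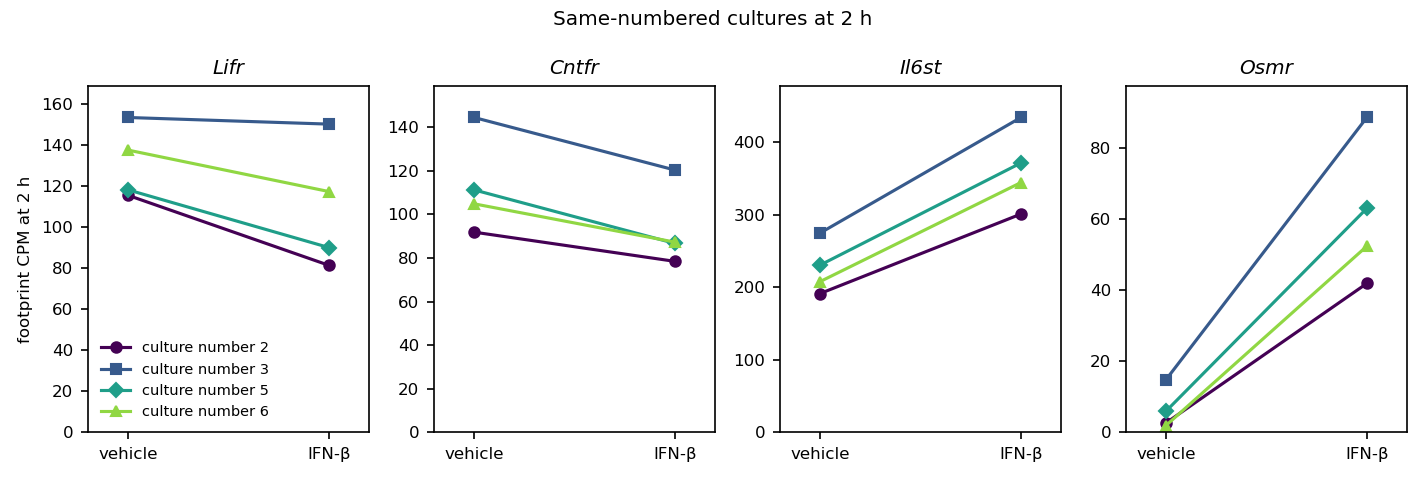
Footprint CPM at 2 h (axes from 0) of Lifr, Cntfr, Il6st and Osmr, with a line from the vehicle culture to the IFN-β culture of the same number (2, 3, 5 or 6). Lifr and Cntfr go down and Il6st and Osmr go up along all 4 lines, and culture 3 lies highest in each panel.

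The call of Il6st at 2 h was lost in 5 of 8 fits that left out a library, without vehicle culture 2 (adjusted p = 0.0572), 5 (0.0643) or 6 (0.0780) and without IFN-β culture 5 (0.0800) or 6 (0.0539), with edgeR throughout. The log2 fold change of Il6st stayed between 0.59 and 0.79 in these fits, and within same-numbered pairs the log2 difference was 0.65 to 0.73. These fits had no replicate block, and with all libraries the block did not change the call of Il6st at 2 h.

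Il1r1 and Tnfrsf1a, the receptors that signal through adaptors, both rose at 2 h. Il1r1, the signalling receptor of IL-1, was at 2.55, 0.839, 1.32 and 2.75 CPM in vehicle cultures, from 6 to 24 counts, and at 13.4, 13.1, 11.3 and 14.8 CPM with IFN-β. The treated cultures were 6.90-fold higher (log2 fold change 2.79 ± 0.30, adjusted p = 0.000381 with edgeR). Tnfrsf1a, the TNF receptor with a death domain, was at 72.9, 94.6, 82.7 and 66.5 CPM in vehicle and at 182.5, 231.0, 187.8 and 168.8 CPM with IFN-β. No library of either group came near the other, and the log2 fold change was 1.28 ± 0.14 (adjusted p = 0.000381).

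Il13ra1, which joins Il4ra in the receptor for IL-4 and IL-13, was at 1.49, 1.40, 1.46 and 0.964 CPM in vehicle and at 11.4, 19.2, 13.7 and 12.1 CPM with IFN-β. The rise was 10.4-fold, with a log2 fold change of 3.38 ± 0.24 (adjusted p = 2.36e-05 with edgeR). The chains for IFN-γ and IL-10 did not pass the test at 2 h. Ifngr1, which binds IFN-γ, had a log2 fold change of -0.15 ± 0.10, Ifngr2, its second chain, -0.05 ± 0.18, and Il10rb, the chain shared by the receptors of IL-10, IL-22 and type III IFN, -0.06 ± 0.18, with adjusted p from 0.556 to 0.950. All 3 had overlapping groups. The sign of Ifngr2 turned to 0.11 (adjusted p = 0.686) without both cultures numbered 3.

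After 14 h, the receptors that rose were Il13ra1, Il10rb, Tnfrsf1a, Ifngr2 and Cntfr, by 1.21-fold to 2.47-fold. These were 5 of the 8 receptors that passed the filter, and none was called lower. At this time 52.5% of 12113 genes were called, 26.2% higher and 26.3% lower. In these 5, every IFN-β library lay above every vehicle library, as in 23.4% of all genes. The median log2 fold change of the 8 was 0.30, and that of all genes 0.00. Il1r1 and Osmr had too few counts to pass.

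Tnfrsf1a was at 69.9, 66.5, 74.9 and 73.0 CPM in vehicle cultures 1 to 4 and at 103.0, 108.0, 110.3 and 110.4 CPM with IFN-β. Its log2 fold change of 0.60 ± 0.06 (adjusted p = 1.68e-06 with edgeR) had the smallest adjusted p of the 8. Il13ra1 was at 1.43, 1.10, 0.743 and 0.855 CPM in vehicle, from 6 to 11 counts, and at 2.35, 2.29, 2.67 and 2.57 CPM with IFN-β, from 7 to 24 counts. The groups were apart, and the log2 fold change was 1.30 ± 0.26 (adjusted p = 0.000950), although the gene passed the filter mostly through its IFN-β libraries.

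Il10rb and Ifngr2, whose genes share a cluster with those of the type I IFN receptor, both rose at 14 h. Il10rb was at 5.20, 5.68, 5.82 and 7.03 CPM in vehicle and at 8.05, 7.73, 9.18 and 11.7 CPM with IFN-β, and its log2 fold change was 0.64 ± 0.17 (adjusted p = 0.00586 with edgeR). Ifngr2 was at 18.8, 18.4, 19.4 and 16.3 CPM in vehicle and at 26.8, 23.9, 20.9 and 21.2 CPM with IFN-β. Its log2 fold change was 0.32 ± 0.10 (adjusted p = 0.0160), and the call was lost without vehicle replicate 4 (adjusted p = 0.0501). Of their neighbours, Ifnar2 rose at 14 h (log2 fold change 0.49 ± 0.09, adjusted p = 0.000571), whereas Ifnar1 was at -0.07 ± 0.07 (adjusted p = 0.416). Ifngr1 on chromosome 10, the partner of Ifngr2, was at 50.0, 54.7, 54.7 and 54.3 CPM in vehicle and at 63.8, 52.1, 50.9 and 54.7 CPM with IFN-β. The groups overlapped, with a log2 fold change of 0.02 ± 0.07 (adjusted p = 0.812).

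In the gp130 family at 14 h, Cntfr rose from 46.4, 42.8, 43.8 and 51.3 CPM in vehicle to 54.0, 54.4, 53.5 and 60.7 CPM with IFN-β. The lowest treated culture was above the highest vehicle culture, and the log2 fold change was 0.27 ± 0.08 (adjusted p = 0.00899 with edgeR). Il6st lay between 129.1 and 141.0 CPM in vehicle and between 140.9 and 149.9 CPM with IFN-β. Its log2 fold change of 0.10 ± 0.05 did not pass (adjusted p = 0.116), and passed with the replicate block (0.10 ± 0.04, adjusted p = 0.0471), a fit that called 62.8% of all genes. Lifr lay between 152.9 and 167.3 CPM in vehicle and between 156.9 and 176.5 CPM with IFN-β. It was higher in 4 of 4 same-numbered pairs, by a log2 fold change of 0.06 ± 0.06 (adjusted p = 0.392).

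Il1r1 and Osmr were near the floor of detection at 14 h. Il1r1 had 8, 11, 12 and 17 counts in vehicle replicates 1 to 4 and 0, 4, 3 and 3 counts with IFN-β. Every treated library was below every vehicle library, as in 23% of the genes tested at that time, and the summed level was 3.65 times higher in vehicle (48 against 10 counts, exact 95% counting interval 1.83 to 8.10). Osmr had 4, 4, 3 and 9 counts in vehicle and 2, 15, 10 and 25 with IFN-β. Its groups overlapped, since IFN-β replicate 1, the shallowest library, had 2 counts, and the summed level was 3.42 times higher with IFN-β (52 against 20 counts, interval 2.00 to 6.04). These intervals cover counting error only. Fitted without the count filter, Il1r1 had a log2 fold change of -1.85 ± 0.46 (adjusted p = 0.00234 with edgeR) and Osmr one of 1.69 ± 0.41 (adjusted p = 0.00193).

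**Figure D3:**
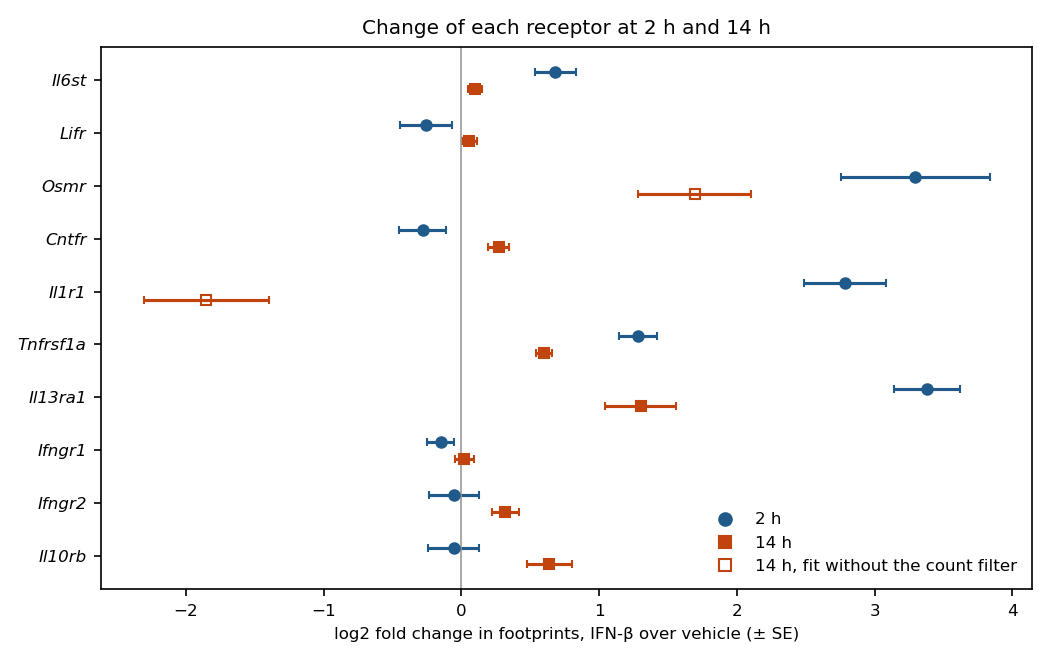
Log2 fold change in footprints, IFN-β over vehicle, with its SE (edgeR, 4 against 4 libraries), for each receptor at 2 h (circles) and 14 h (squares). Open squares mark Osmr and Il1r1 at 14 h, fitted without the count filter. Il1r1 lies at 2.79 at 2 h and at -1.85 at 14 h. Il10rb, Ifngr2, Cntfr, Lifr and Ifngr1 lie to the left of 0 at 2 h and to the right at 14 h. None of these was called at 2 h in this fit, and Il10rb, Ifngr2 and Cntfr were called at 14 h. Without the replicate block, the difference between times was called among these for Il10rb and Cntfr only.

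The change with IFN-β differed between the times for 6 of the 10 receptors, by an interaction test (time by treatment, all 16 footprint libraries). The cultures of the times are numbered differently, so a difference between times cannot be told apart from a difference between sets of cultures. Il1r1, Il13ra1, Tnfrsf1a and Il6st had a lower fold change at 14 h than at 2 h, and Il10rb and Cntfr a higher one. Of 12508 genes, 30.9% were called in this test, 15.5% lower and 15.4% higher. The median difference was -0.19 over the 10 receptors and 0.02 over all genes. Il1r1 had the largest difference, -4.62 ± 0.52 on the log2 scale (adjusted p = 8.39e-06 with edgeR), with a rise at 2 h and fewer counts than vehicle at 14 h. The difference was -2.08 ± 0.36 for Il13ra1 (adjusted p = 0.000397) and -0.68 ± 0.15 for Tnfrsf1a (adjusted p = 0.00268), both still above vehicle at 14 h. For Il6st it was -0.57 ± 0.15 (adjusted p = 0.0110).

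Il10rb differed by 0.70 ± 0.25 (adjusted p = 0.0422) and Cntfr by 0.56 ± 0.19 (adjusted p = 0.0396), and both calls were at the edge of the threshold in edgeR. That of Il10rb was lost in 10 of 16 fits that left out a library (adjusted p 0.0525 to 0.103), all but those without vehicle cultures 3 and 6 or IFN-β culture 3 at 2 h, or without vehicle replicate 4 or IFN-β replicates 1 and 2 at 14 h. That of Cntfr was lost in 12 of 16 (adjusted p 0.0501 to 0.0819), all but those without vehicle cultures 2 and 6 or IFN-β culture 3 at 2 h, or without vehicle replicate 4 at 14 h. Osmr, Lifr, Ifngr1 and Ifngr2 were not called, at -1.58 ± 1.05, 0.33 ± 0.21, 0.20 ± 0.13 and 0.39 ± 0.21. Without both cultures numbered 3 at 2 h, Osmr was called at -2.18 (adjusted p = 0.0165) and Lifr at 0.44 (adjusted p = 0.0151), with 41.8% of all genes. With the replicate block, 9 receptors and 55.5% of all genes were called. Osmr was then at -1.67 (adjusted p = 0.0312), Lifr at 0.36 (adjusted p = 0.000375) and Ifngr2 at 0.36 (adjusted p = 0.0353).

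The receptors spanned a wide range of levels. Per kb of CDS in vehicle cultures at 2 h, Cntfr was at 101.3 ± 20.1 CPM (SD, n = 4), Il6st at 81.0 ± 13.0, Tnfrsf1a at 53.4 ± 8.27, Lifr at 39.9 ± 5.42, Ifngr1 at 35.1 ± 2.78 and Ifngr2 at 20.4 ± 5.22. Il10rb at 6.49 ± 1.44, Osmr at 2.18 ± 2.03, Il1r1 at 1.08 ± 0.54 and Il13ra1 at 1.04 ± 0.19 followed. Neighbours in this order whose 4 libraries did not overlap were Il6st and Tnfrsf1a, Ifngr1 and Ifngr2, and Ifngr2 and Il10rb. With IFN-β at 2 h, Il6st (129.9 ± 19.9 CPM per kb) and Tnfrsf1a (129.8 ± 18.1) overlapped at the top. Every library of Tnfrsf1a was above those of Cntfr (83.5 ± 16.6), whereas the lowest of Il6st just overlapped with the highest of Cntfr. Osmr (21.1 ± 6.88) then overlapped with Ifngr1 and Ifngr2, and Il1r1 (7.60 ± 0.82) with Il10rb (6.26 ± 0.50), the lowest of the 10.

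In vehicle cultures at 14 h the first 4 places, Lifr (49.3 ± 1.94 CPM per kb), Il6st (48.0 ± 1.79), Tnfrsf1a (47.9 ± 2.47) and Cntfr (41.3 ± 3.40), overlapped from each to the next, and Osmr was last at 0.201 ± 0.082. With IFN-β at 14 h, Tnfrsf1a alone was first (72.8 ± 2.32 CPM per kb), above Il6st (51.8 ± 1.40). Il13ra1 (1.94 ± 0.14) stood above Osmr (0.599 ± 0.298), which overlapped with Il1r1 (0.194 ± 0.142). The 2 times were counted into separate tables from differently numbered cultures, and levels in vehicle cultures were not tested between them. Cntfr was at 113.1 ± 22.4 CPM in vehicle at 2 h and 46.1 ± 3.79 at 14 h, and Osmr at 6.34 ± 5.92 and 0.585 ± 0.238.

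**Figure D4:**
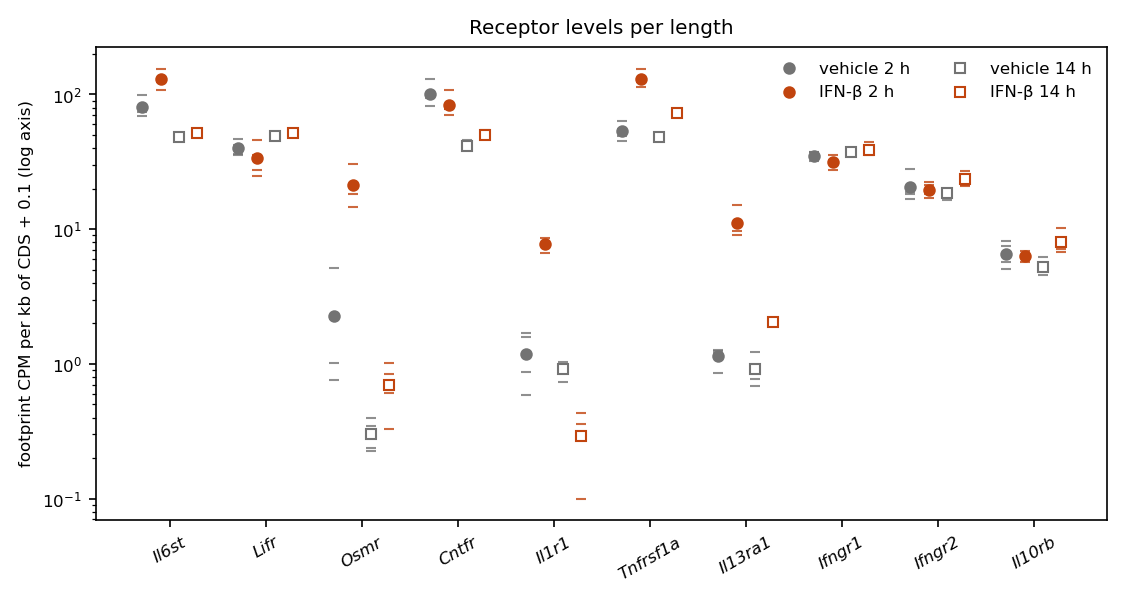
Footprint level per kb of CDS (CPM per kb plus 0.1, log axis) of each receptor, with the group mean as a large symbol and the 4 libraries as dashes, grey for vehicle and orange for IFN-β, filled circles at 2 h and open squares at 14 h. The group means of Osmr run from 0.201 to 21.1 CPM per kb, and those of Ifngr1 stay between 31.6 and 38.7 CPM per kb.

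The other genes of these pathways are described from lists of partner chains, ligands, signal carriers, inhibitors and targets, read against the same shares of all genes. Of 19 partner chains, 7 passed the filter at 2 h, and 3 rose and none fell. Il1r2, the decoy receptor of IL-1, passed through IFN-β libraries alone, and without it 2 of 6 rose. Il4ra, the partner of Il13ra1, rose (log2 fold change 1.74 ± 0.20, adjusted p = 0.000631 with edgeR), as did Il1rap, the partner of Il1r1 (0.52 ± 0.12, adjusted p = 0.0298). At 14 h, 5 of 6 tested partner chains rose, Il1rap by 0.41 ± 0.06 (adjusted p = 7.52e-05) and Il11ra1, which binds IL-11 for gp130, by 0.47 ± 0.18 (adjusted p = 0.0418), with overlapping groups. The median of the tested partner chains was 0.52 at 2 h, or 0.41 without Il1r2, and 0.48 at 14 h. Of the partner chains of Il10rb, Il10ra and Il22ra1 had 0 counts in every footprint library. Ifnlr1 had 0 to 2 counts per library at 2 h and 0 at 14 h. The rise of Il10rb at 14 h thus came without detected footprints of these partners. Of 18 ligands, 2 passed the filter at each time and none was called. Lif, the ligand of Lifr, averaged 10.5 counts per library at 2 h and 11.9 at 14 h.

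Among 27 signal carriers, 26 were tested at 2 h, with 8 higher and 1 lower (median log2 fold change 0.10), and 27 at 14 h, with 14 higher and 3 lower (median 0.31). Stat2, which carries type I IFN signals, rose by 4.03 ± 0.17 at 2 h and by 4.63 ± 0.08 at 14 h. Myd88, the adaptor of IL1R1, rose by 2.25 ± 0.21 at 2 h (adjusted p = 0.000142 with edgeR) and by 3.00 ± 0.12 at 14 h (adjusted p = 2.06e-10). At 2 h both Myd88 and Il1r1 rose. At 14 h Myd88 stood above vehicle, and Il1r1 had few footprints in both groups, 8 to 17 counts in vehicle and 0 to 4 with IFN-β.

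Of 16 inhibitors and shedding enzymes, 13 were tested at 2 h, 6 higher and 1 lower (median 0.27), and 14 at 14 h, again 6 higher and 1 lower (median 0.24). Socs1 at both times and Socs2 at 2 h passed the filter through IFN-β libraries alone, which fixed their direction. Without them the counts were 4 higher and 1 lower of 11 at 2 h (median 0.11), and 5 higher and 1 lower of 13 at 14 h (median 0.17). Socs3, which binds gp130 and blocks its signal, rose by 1.65 ± 0.19 at 2 h (adjusted p = 0.000513 with edgeR) and was at 0.14 ± 0.33 at 14 h (adjusted p = 0.738). The phosphatases Ptpn1 and Ptpn2, which act on JAK kinases and STATs, rose at 2 h by 0.97 ± 0.08 and 0.61 ± 0.10. At 14 h, Tnip1 and Nfkbia, which restrain NF-κB, rose by 0.50 ± 0.09 and 0.31 ± 0.10, and Adam17, the protease that sheds TNFR1 and other receptors, fell by 0.16 on the log2 scale (SE 0.06, adjusted p = 0.0291).

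Of 14 genes known as STAT3 targets, 12 were tested at 2 h and 8 rose (median 1.38). Bcl3 passed the filter through IFN-β libraries alone, and without it 7 of 11 rose (median 1.37). Then 10 were tested at 14 h, of which 6 rose and 2 fell (median 0.47). Serpina3n, a secreted protease inhibitor, rose by 4.75 ± 0.67 at 2 h and 4.14 ± 0.20 at 14 h, and Timp1, an inhibitor of metalloproteases, by 2.81 ± 0.26 and 3.04 ± 0.15. Cebpb, a transcription factor, rose by 0.88 ± 0.10 at 14 h (adjusted p = 7.20e-06 with edgeR). Of 12 NF-κB targets, 7 were tested at 2 h with 2 higher (median 0.44), and 8 at 14 h with 4 higher and 1 lower (median 0.35). The chemokine gene Ccl2 rose by 2.69 ± 0.50 at 2 h (adjusted p = 0.0102) and Nfkb1 by 0.58 ± 0.11. At 14 h the adhesion molecule Vcam1 rose by 3.02 ± 0.14 (adjusted p = 1.32e-09), Nfkb2 by 0.56 ± 0.07 and Relb by 0.51 ± 0.14.

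**Figure D5:**
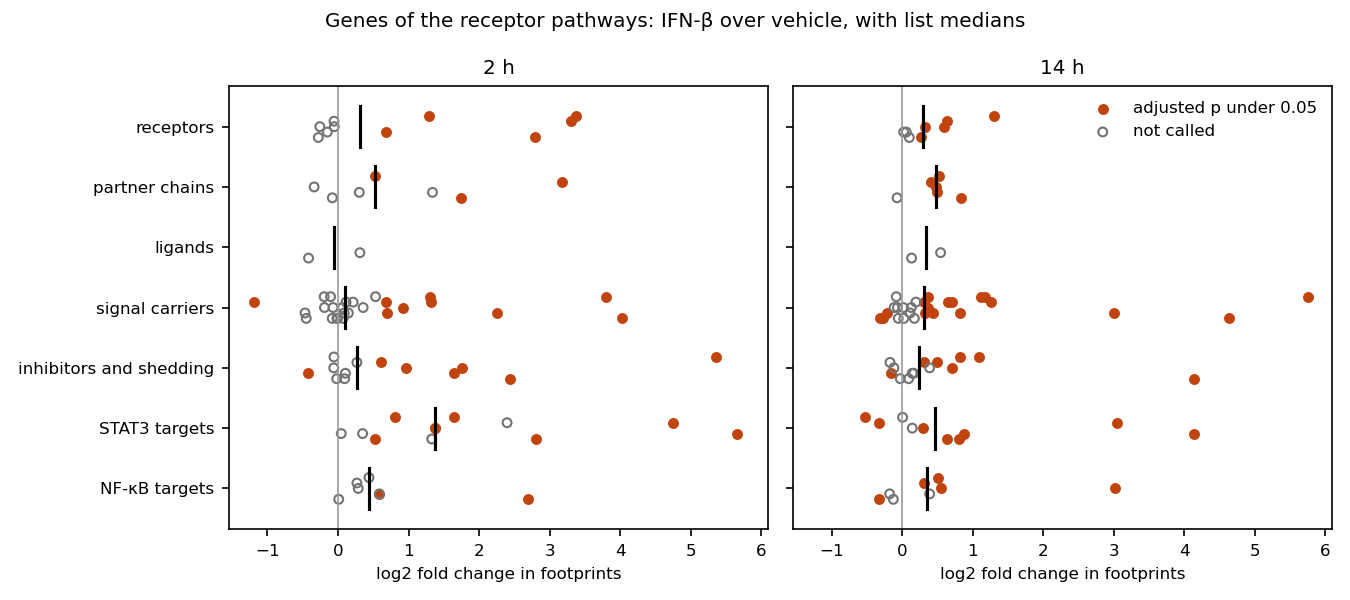
Log2 fold change in footprints, IFN-β over vehicle, of the tested genes of each list at 2 h and 14 h, filled where the adjusted p is under 0.05 and open otherwise, with a black bar at the list median. The median of the STAT3 targets lies at 1.38 at 2 h and 0.47 at 14 h, and the ligand list holds 2 points at each time.

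Total RNA was counted over gene bodies with a strand setting that is not given in the sources used here, and whether these counts hold all reads of a gene was not tested. Few counts fell on the receptors, 0 to 92 per library at 2 h (median 13.0) and 0 to 19 at 14 h (median 3.0). Vehicle culture 5 at 2 h stood apart from the others of its group, by a chi-square per degree of freedom of 402 to 489 against 41.3 to 57.3 among the rest, and vehicle replicate 3 at 14 h by 179 to 221 against 6.86 to 36.7. Without the first, 57 genes and 0 receptors were called at 2 h, where 93 genes were with it, and without the second 390 genes and 0 receptors at 14 h. At 2 h, 7 of the 10 passed the filter and none was called with edgeR, where 0.799% of 11639 genes were. Tnfrsf1a had 6, 17, 3 and 7 counts in vehicle cultures 2, 3, 5 and 6 and 53, 24, 33 and 19 with IFN-β. Its groups were apart, as in 2.58% of all genes, with a log2 fold change of 1.81 ± 0.40 (unadjusted p = 0.000720, the only receptor under 0.05, and adjusted p = 0.0776). It was called by DESeq2 (adjusted p = 0.0122), by edgeR with no count filter (adjusted p = 0.0209) and without vehicle culture 3 (adjusted p = 0.0247). Without vehicle culture 5 it was at 1.63 (adjusted p = 0.257). Ifngr2 likewise had separate groups, with 4 to 15 counts in vehicle and 16 to 18 with IFN-β (log2 fold change 0.67 ± 0.33, adjusted p = 0.764).

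Il6st in total RNA had 6, 63, 20 and 27 counts in vehicle and 92, 67, 43 and 13 with IFN-β at 2 h, with overlapping groups (0.69 ± 0.53, adjusted p = 0.971). Il1r1 had 13 to 26 counts in vehicle and 18 to 35 with IFN-β (0.17 ± 0.26, adjusted p = 0.999), and Osmr, with 4, 30, 6 and 5 counts against 9, 32, 15 and 3, did not pass the filter. At 14 h only Il1r1 and Lifr were tested, at 0.18 ± 0.39 (adjusted p = 0.850) and -0.49 ± 0.33 (adjusted p = 0.459), and neither reached an unadjusted p of 0.05 with edgeR, while 6.30% of 7520 genes were called. Il10rb had 3 counts over all 16 total RNA libraries and 881 over the 16 footprint libraries. With so few RNA counts, translation efficiency was not computed for the receptors.

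Across the 16 footprint libraries, the levels of some receptors moved together. As a description over libraries that share cultures and treatments, the log2 CPM of Il13ra1 and Tnfrsf1a correlated at r = 0.97 and those of Il6st and Osmr at r = 0.97. Those of Il1r1 and Lifr went in opposite directions, at r = -0.75. Among 9937 other genes that averaged 50 counts or more at each time, the most alike was Coq10b for Il1r1 (r = 0.98), Pgm2 for Il6st (0.99), Agpat4 for Osmr (0.98), Plxna2 for Il13ra1 (0.99), Nfe2l2 for Tnfrsf1a (0.98) and Mapk8ip3 for Cntfr (0.99). For Lifr it was Cspg4 (0.93), for Il10rb Coro2b (0.91), for Ifngr2 Usp8 (0.88) and for Ifngr1 Crtc1 (0.87).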

How the data were processed

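The authors trimmed the reads with Trim Galore 0.4.4, mapped them with Bowtie 0.12.7 to the mouse transcriptome of the GRCm38 (mm10) build and counted reads per gene. Their methods also state that duplicates among the reads were taken out. What this did to the levels and fold changes was not tested. The deposited values are raw counts, for footprints in the CDS and for total RNA over the gene body. The strand setting of this counting is not given in the sources used here, and the total RNA kit was directional.

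The members and lists were chosen with earlier results of these data known. Symbols, positions and CDS lengths were taken from GENCODE M21. The main test was that of edgeR 4.0.16 in R 4.3.3 (TMM, quasi-likelihood test, two-sided, Benjamini-Hochberg over all genes tested, threshold 0.05) within each time, for genes reaching 10 counts in 4 or more libraries. The interaction of time and treatment used all 16 footprint libraries. Printed CPM were scaled over the 16 libraries together, and thus do not give the fitted fold changes exactly. limma 3.58.1 (voom) and DESeq2 1.42.0 served as alternatives, beside other scalings, filters, the replicate block and leaving out libraries. The fit was tested on simulated data.

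Replicate numbers of the labels were checked for pairing. Deviations from the group means of same-numbered footprint libraries correlated at 0.345 to 0.821 at 2 h and at 0.203 to 0.434 at 14 h, so that the numbers were taken to pair the cultures. In total RNA they did not (-0.48 to 0.39 at 2 h). The main tests had no replicate block and so did not use the pairing of the footprint cultures. Calls that changed with the block are given beside them.

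All 10 receptors are named. Of each pathway list, the up to 3 called genes with the largest change at each time and a mean of at least 50 counts are named, and for each receptor the gene of highest Pearson correlation (log2 CPM, pseudocount 0.5). Some genes that this rule picks are not reported here. Lif, Ifnar1, Il10ra, Il22ra1 and Ifnlr1, and Socs3 at 14 h, were named outside this rule, after their values were seen. Intervals for summed counts are exact (conditional binomial). These and the figures were made in Python 3.11.15 (scipy 1.17.1, matplotlib 3.10.9).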

Additional observations from a re-analysis of the deposited data

Results flagged for a closer look

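Among 58 groups of 4 libraries, 2 held a receptor value far from the others, where chance gives about 1 in 20. Ifngr1 was at 50.0 CPM in vehicle replicate 1 at 14 h, below the others at 54.3 to 54.7 CPM, and Cntfr was at 60.7 CPM in IFN-β replicate 4 at 14 h, above the others at 53.5 to 54.4 CPM.

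The change with IFN-β differed between the times, and thus between the sets of cultures, by edgeR's test of the interaction for 6 receptors. The log2 fold change at 14 h minus that at 2 h was -4.62 for Il1r1, -2.08 for Il13ra1, -0.68 for Tnfrsf1a, -0.57 for Il6st, 0.70 for Il10rb and 0.56 for Cntfr.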

How the results depend on the processing

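The count of receptors called at 2 h was 5 in footprints, and 4 to 5 with a library left out. At 14 h it was 5, and 4 to 5, and for the difference between times 6, and 4 to 7. Genes called ranged with a library left out from 517 to 953 of the 2 h footprints, 5613 to 6353 at 14 h, 3229 to 4929 for the difference, 30 to 74 in total RNA at 2 h and 171 to 450 at 14 h, and receptors in total RNA from 0 to 1 and from 0 to 0. With the replicate block, genes called rose from 878 to 3538 at 2 h and from 3867 to 6944 for the difference, and the block changed no receptor's call beyond those printed above. Leaving out both cultures numbered 3 at 2 h, an alternative chosen after seeing the data, gave 1671 genes. In total RNA at 2 h, 93 genes were called, against 174 and 1 receptor with no filter, 169 and 1 receptor with DESeq2, and 44 at a mean of at least 50 counts. At 14 h, 474 were called, against 269 with total counts for scaling and 247 at a mean of at least 50. Scaling by total counts moved the share of higher calls from 55.1% to 65.8% at 14 h and from 90.3% to 79.8% at 2 h in total RNA, with the median of all genes at 2 h moving from 0.04 to 0.23 on the log2 scale. In all these cases the cause was not tested.

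Signs turned in uncalled receptors only. In footprints at 2 h, Il10rb was at 0.02 and 0.06 without vehicle replicates 2 and 5 (range with a library left out -0.16 to 0.0588), and Ifngr2 at 0.14 without vehicle replicate 3, 0.01 without IFN-β replicate 6 (range -0.14 to 0.14) and 0.11 without both cultures numbered 3. At 14 h, Ifngr1 was at -0.00307 and -0.03 without vehicle or IFN-β replicate 1 (range -0.0255 to 0.0594). In total RNA at 2 h, Lifr was at 0.22 with total counts, 0.08 without vehicle replicates 5 or 6, and 0.04 and 0.18 without IFN-β replicates 2 and 6 (range -0.41 to 0.18), and Il13ra1 at -0.00198 without vehicle replicate 2 (highest 0.49). At 14 h, Il1r1 was at -0.18 without vehicle replicate 1 and -0.00534 without IFN-β replicate 2 (highest 0.61). Without the count filter, the 14 h minus 2 h difference of Il10rb was not called (adjusted p = 0.0662). Il1r1 and Osmr at 14 h could be fitted only without the filter. Few counts limit these 2 at 14 h.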
